A study of Mus musculus with 6 samples.

Results

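The 8 genes described here encode costimulatory receptors and ligands that T cells use when they meet another cell. They are the CD28 family receptors Cd28 and Icos, the CD40 ligand Cd40lg, the B7 family ligands Cd80, Cd86 and Cd274, and the adhesion pair Cd2 and Cd48. They were chosen by name, and each of the 8 matched 1 row among the 36930 features of the deposited tables. RNA was measured in bone marrow (BM) Tregs of 3 CML and 3 naive mice, all of the Foxp3-DTR-GFP strain and labelled as post natal week 8, with 1 library for each mouse. In these mice the Foxp3 locus drives a diphtheria toxin receptor and GFP. The CML mice were not irradiated and had received syngeneic stem and progenitor cells (LSKs) transduced with BCR-ABL1-GFP, so that both the recipient Tregs and the leukemic cells can carry GFP. The naive mice carry the same Foxp3 allele and no leukemia. The comparison asks whether the mRNA of these genes differs between CML and naive BM Tregs.

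A T cell needs a signal through its antigen receptor and a second one through a costimulatory receptor. CD28 gives this second signal when it binds CD80 or CD86 on an antigen-presenting cell, and CTLA-4, which is abundant on Tregs, binds the same ligands more tightly and removes them from that cell. ICOS is a relative of CD28 with a ligand of its own, and it is typical of activated and effector Tregs. PD-L1, the product of Cd274, restrains T cells that carry PD-1, whereas CD2 and its mouse ligand CD48 hold T cells in contact with their partners.

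The genes of CD28, CTLA-4 and ICOS lie side by side on the plus strand of chromosome 1 in GRCm38, the build the submitters name, with coordinates from GENCODE M21. Cd28 spans positions 60716800 to 60773359, Ctla4 60887000 to 60915832 and Icos 60977927 to 61000320. The gaps between them measure 113.6 and 62.1 kb. The loop that touches the B7 ligand lies in exon 2 of each gene, and its coding bases differ between the 3 genes. The coding strand around this loop is shown from GENCODE transcripts because the levels of these receptor mRNAs are set against each other as ratios, and the capitals mark the 6 codons of the loop. The stretches are chr1:60763239-60763328 in Cd28, chr1:60912677-60912766 in Ctla4 and chr1:60993947-60994036 in Icos.
Cd28: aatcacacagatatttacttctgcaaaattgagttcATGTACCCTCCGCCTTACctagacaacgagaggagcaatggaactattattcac
Ctla4: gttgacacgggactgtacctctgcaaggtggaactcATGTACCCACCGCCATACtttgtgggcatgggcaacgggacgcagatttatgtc
Icos: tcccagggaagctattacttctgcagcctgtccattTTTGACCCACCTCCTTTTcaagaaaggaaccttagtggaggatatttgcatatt
Cd28 and Ctla4, which share their ligands, have 16 of the 18 loop bases in common. The loop codons of these 2 genes encode the same amino acids. Icos shares 11 of the 18 bases with either Cd28 or Ctla4.

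The values are taken to be RPKM, read numbers scaled to feature length and library size. Triplets of values follow the order of replicates 1 to 3. The libraries differed in depth, with an estimated 829181 to 7613827 reads in CML Tregs and 5187987 to 9751911 in naive Tregs. CML replicate 2 had the fewest reads and stands apart from the rest, since its 10 highest features held 50.7% of its summed values against 28.5% to 31.3% in the other 5 libraries. All 8 markers of T cells and Tregs were detected, with a sum of 1736 to 2371 RPKM in CML and 1728 to 2002 RPKM in naive Tregs. Markers of other cells were present at lower levels. Of 7 dendritic cell markers, Xcr1 was at 0 in every library, while the sum of the list was 174 to 194 RPKM in CML and 137 to 330 RPKM in naive Tregs, most of it Siglech (129 to 144 and 91.9 to 222 RPKM). The 7 monocyte and macrophage markers summed to 13.8 to 40.6 RPKM and 36.8 to 61.7 RPKM. The 12 neutrophil markers summed to 10.2 to 223 RPKM and 30.8 to 53.9 RPKM with Ly6g and Retnlg at 0, and the 7 erythroid markers to 35.6 to 206 RPKM and 5.01 to 29.6 RPKM. The 8 B cell markers summed to 12.1 to 26.0 RPKM and 25.8 to 38.0 RPKM, with Pax5, Ebf1 and Vpreb3 among those at 0. Sums were 51.1 to 74.2 RPKM and 26.2 to 58.7 RPKM for CD8 T cells, and 0 to 5.64 RPKM and 0.697 to 1.66 RPKM for NK cells. Stem and progenitor markers summed to 6.80 to 8.77 RPKM in CML and 2.71 to 3.93 RPKM in naive Tregs. Megakaryocyte markers summed to 0 to 0.705 RPKM and 1.27 to 5.52 RPKM. Like the erythroid sum, neither of these sums overlapped between the groups, but both were low. Gata2 gave 8.36 of the 8.77 RPKM in CML replicate 2, and Pf4 gave 5.38 of the 5.52 RPKM in naive replicate 2. Such sums were not compared with all features. In bulk RNA, fewer cells of a type and less RNA per cell cannot be told apart.

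**Figure D1:**
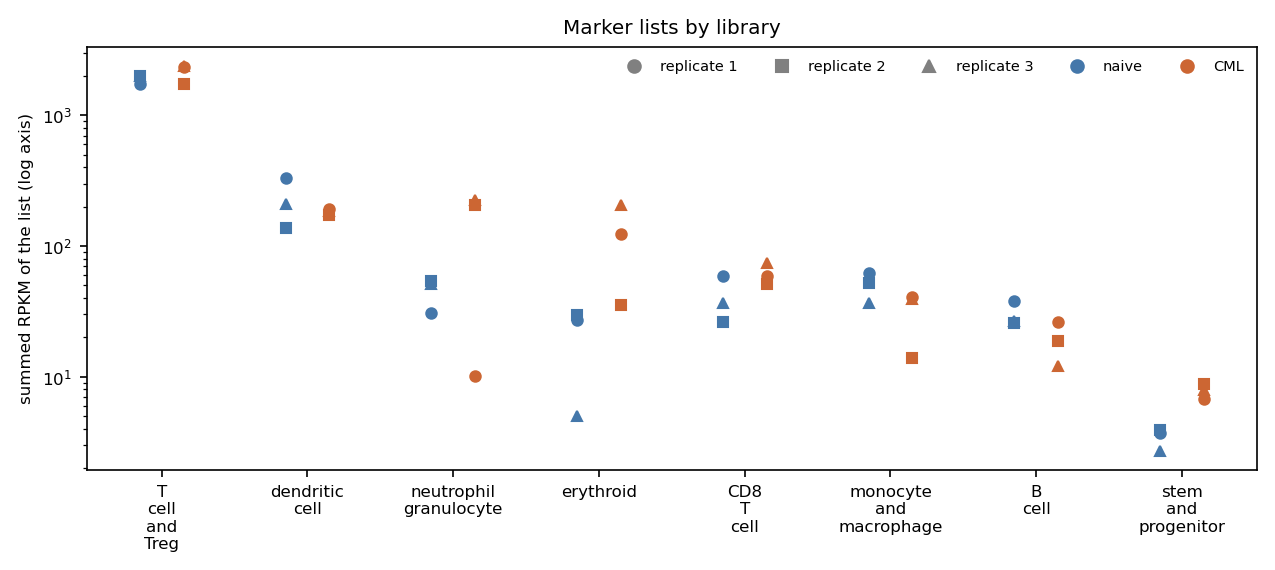
Summed RPKM of 8 marker lists (log axis) in each library, with naive mice in blue, CML mice in orange and the replicate number given by the symbol. T cell and Treg markers were the highest list in every library, dendritic cell markers were present in all 6, and erythroid markers were higher in the 3 CML libraries than in the 3 naive libraries.

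None of the 8 genes passed the test between CML and naive Tregs, which asked for at least a 1.5-fold difference with an adjusted p below 0.05 (limma on log2(RPKM + 1), Benjamini-Hochberg adjustment over 13923 features). Over all features tested, 0.172% passed. At an unadjusted p under 0.05 with the same fold, 1 of the 8 genes, Icos, was found, against 8.55% of all features. For 3 of the 8 genes the libraries of both groups were fully separated, compared with 17.1% of all features. Icos was the one that lay higher in CML Tregs (4.84% of all features did), and Cd86 and Cd48 lay lower (12.2% of all features did). The median log2 fold change was -0.24 for the 8 genes and -0.18 for all features, and the latter was -0.0068 after quantile normalization.

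**Figure D2:**
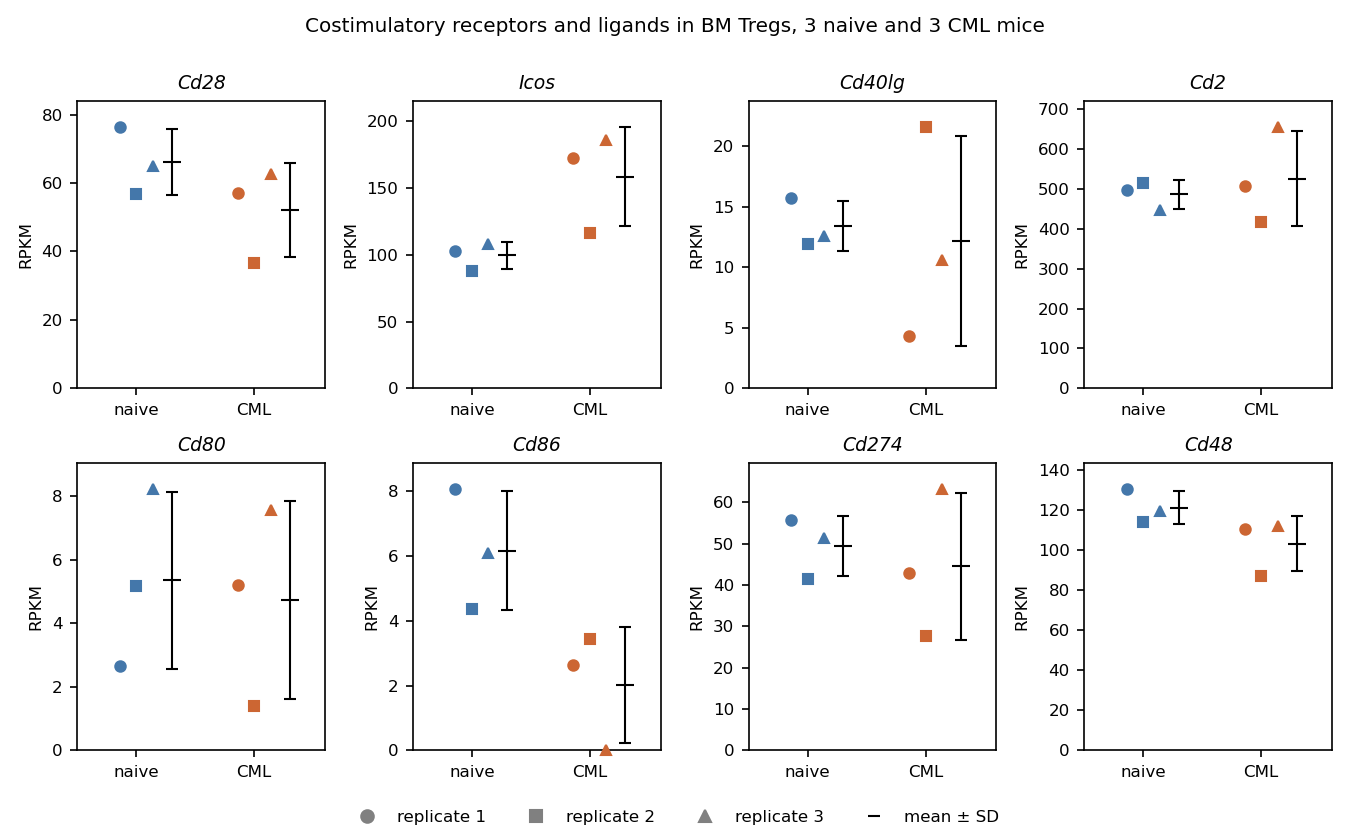
RPKM of the 8 genes in each of 3 naive (blue) and 3 CML (orange) libraries, with the mean ± SD of each group beside the points. Icos sits between 116 and 186 RPKM in CML Tregs, above the 88.0 to 108 RPKM of naive Tregs, whereas Cd86 and Cd48 sit below the naive libraries and the other 5 genes overlap.

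Icos was higher in CML Tregs. It had 172, 116 and 186 RPKM in the CML mice, and 103, 88.0 and 108 RPKM in the naive mice. Each of the 3 CML values exceeded each of the 3 naive values, and CML replicate 2 was the closest to them. Mean levels were 158 ± 37.0 RPKM in CML and 99.6 ± 10.3 RPKM in naive Tregs (SD, n = 3). Icos thus had a log2 fold change of 0.64 (standard error 0.21, 95% interval 0.15 to 1.13, limma unadjusted p = 0.0163, adjusted p = 0.389). Exact permutation of the 6 mice (2-sided, 20 assignments) gave p = 0.1, which is the lowest value this design can reach. Each library is a separate mouse, so the spread between these 6 mice includes differences between libraries. The limma p-values rest on that spread after it was moderated toward the variance of all features tested. When 1 library was left out, the log2 fold change was 0.57 without CML replicate 1 (limma unadjusted p = 0.0583), 0.85 without CML replicate 2 (0.000922), 0.51 without CML replicate 3 (0.0540) and 0.56 without naive replicate 2 (0.0646). Without CML replicate 1, CML replicate 3 or naive replicate 2, Icos thus no longer reached the unadjusted p and the fold, and without a trend in the prior variance it missed the unadjusted p (0.0577). With both other scalings the groups did not overlap.

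Cd28, the founding member of the family, had 57.2, 36.7 and 62.6 RPKM in the CML mice. In naive replicates 1, 2 and 3 it had 76.3, 56.9 and 65.1 RPKM. CML replicate 2 lay below all other libraries, but CML replicates 1 and 3 lay within the naive range, so the groups overlapped. For Cd28 the log2 fold change was -0.36 (standard error 0.24, 95% interval -0.93 to 0.20, limma adjusted p = 0.657), and -0.13 without CML replicate 2.

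The ratio of Icos to Cd28 was higher in CML Tregs. A ratio within 1 library does not change when all values of that library are multiplied by 1 factor. The ratio of Icos to Cd28 was 3.02, 3.17 and 2.98 in the CML mice, and 1.35, 1.55 and 1.66 in the naive mice. Each CML library exceeded each naive one, and CML replicate 2, whose Icos and Cd28 were both the lowest of the CML group, had the highest ratio of the 3. The mean log2 ratio was 1.61 ± 0.05 (SD, n = 3) in CML and 0.60 ± 0.15 (SD, n = 3) in naive Tregs, a difference of 1.01 or 2.02-fold (exact permutation, 2-sided p = 0.1, which is the smallest possible, and 0.167 after adjustment over 5 ratios). It stayed between 0.93 and 1.08 when each library was left out. Among 11198 features with reads in all libraries, 14.9% had a ratio to Cd28 that lay higher in every CML library, and 4.81% did so with a difference at least as large as that of Icos.

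Ctla4, which lies between these genes on the chromosome, lay higher in CML Tregs. It had 222, 205 and 213 RPKM in the CML mice, and 178, 154 and 142 RPKM in the naive mice. The groups did not overlap, and the log2 fold change was 0.44 (95% interval 0.09 to 0.78, limma adjusted p = 0.405). The ratio of Cd28 to Ctla4 was 0.258, 0.179 and 0.293 in the CML mice, and 0.427, 0.370 and 0.459 in the naive mice. Every CML library thus had less Cd28 mRNA for each unit of Ctla4 than any naive library, with a log2 difference of -0.81 (exact permutation, 2-sided p = 0.1, which is the smallest possible, and 0.167 after adjustment over 5 ratios). The share of all features with such a separated ratio to Ctla4 was not computed.

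**Figure D3:**
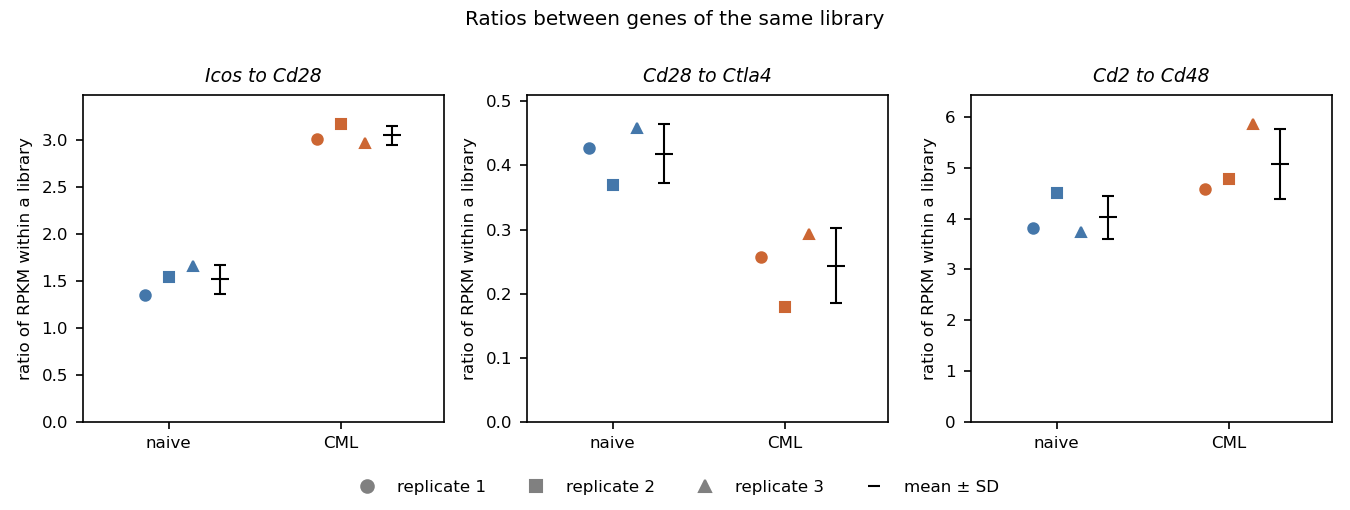
Ratio of the RPKM of 2 genes within each library for Icos to Cd28, Cd28 to Ctla4 and Cd2 to Cd48, with naive mice in blue, CML mice in orange and the mean ± SD beside the points. The Icos to Cd28 ratio averaged 3.06 ± 0.10 in CML and 1.52 ± 0.16 in naive Tregs, and in each of the 3 ratios the groups do not overlap.

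Cd40lg lies on chromosome X (57212143 to 57224042) and encodes the TNF family ligand by which helper T cells activate B cells and dendritic cells through CD40. It had 4.36, 21.6 and 10.6 RPKM in the CML mice, against 15.8, 11.9 and 12.6 RPKM in the naive mice. The CML libraries lay on both sides of the naive libraries, with CML replicate 1 the lowest and CML replicate 2 the highest of all 6. The value of CML replicate 2 rests on an estimated 22.3 reads. Cd40lg had a log2 fold change of -0.36 (95% interval -1.55 to 0.84, limma adjusted p = 0.832), and it turned to 0.18 without CML replicate 1.

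Cd86 lay lower in CML Tregs. It lies on the minus strand of chromosome 16 (36603869 to 36666081) and encodes a ligand of CD28 and CTLA-4 that is made mainly by antigen-presenting cells. Its level was 2.63 RPKM in CML replicate 1 and 3.45 RPKM in CML replicate 2, with no reads in CML replicate 3, where 3 reads would give 0.517 RPKM. The naive mice had 8.06, 4.37 and 6.10 RPKM. All CML libraries lay below all naive libraries, but the value of CML replicate 2 rests on an estimated 7.26 reads. Mean levels were 2.03 ± 1.80 RPKM in CML and 6.18 ± 1.85 RPKM in naive Tregs (SD, n = 3). For Cd86 this gave a log2 fold change of -1.47 (95% interval -2.98 to 0.04, limma unadjusted p = 0.0545, adjusted p = 0.526), and the exact 2-sided permutation p was 0.1, the smallest possible. It was -0.80 without CML replicate 3, and with quantile normalization the groups overlapped, whereas with the same 75th percentile they stayed apart (11.2% of all features lay lower in this way). Of the tested markers, Cd209a, 1 of 6 for dendritic cells, also lay lower in the CML mice (8.24, 0 and 7.32 RPKM) than in the naive mice (29.8, 11.0 and 20.6 RPKM), and so did Ly6c2, 1 of 4 for monocytes (25.2, 0 and 14.4 against 50.6, 41.5 and 29.0 RPKM). The part of such cells in the Cd86 values was not tested.

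Cd80, the other ligand of CD28 and CTLA-4, lies on the same chromosome (38455561 to 38496335). It had 5.21, 1.39 and 7.57 RPKM in the CML mice, and 2.67, 5.17 and 8.22 RPKM in the naive mice. Both groups covered nearly the same range, and CML replicate 2, with an estimated 3.66 reads, was the lowest. Cd80 had a log2 fold change of -0.24 (95% interval -1.66 to 1.19, limma adjusted p = 0.912). The ratio of Cd86 to Ctla4 was 0.0118 and 0.0169 in CML replicates 1 and 2, and 0.0452, 0.0284 and 0.0430 in the naive mice, and it was not computed in CML replicate 3 (exact permutation test with 2 against 3 mice, p = 0.2, the smallest possible, and 0.25 after adjustment over 5 ratios). The ratio of Cd86 to Cd80 also left out CML replicate 3, and it overlapped between the groups (log2 difference -0.15, exact permutation p = 0.8 before and after this adjustment). With 1 RPKM added to both genes, all 6 libraries gave a log2 difference of -1.23 for this ratio (exact permutation p = 0.4) and of -1.91 for that of Cd86 to Ctla4 (exact permutation p = 0.1, the smallest possible).

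Cd274 lies on chromosome 19 (29367455 to 29388095) and encodes PD-L1. It had 43.0, 27.6 and 63.1 RPKM in the CML mice. The naive mice had 55.6, 41.5 and 51.5 RPKM, so that CML Tregs held both the lowest and the highest library. Cd274 had a log2 fold change of -0.21 (95% interval -0.92 to 0.49, limma adjusted p = 0.828), and 0.08 without CML replicate 2.

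Cd2 was the most abundant of the 8 genes in every library. It lies on the minus strand of chromosome 3 (101275899 to 101287939) and encodes the adhesion receptor that binds CD48 in mice. It had 507, 417 and 655 RPKM in the CML mice, and 498, 515 and 446 RPKM in the naive mice. The naive libraries lay within the range of the CML libraries (log2 fold change 0.09, 95% interval -0.34 to 0.52, limma adjusted p = 0.887). With libraries scaled to the same 75th percentile or quantile normalized, every CML library exceeded every naive one (6.49% and 8.88% of all features did so in this direction), with log2 fold changes of 0.16 and 0.27 (limma adjusted p = 0.644 and 0.489).

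Cd48 lies on chromosome 1 (171682009 to 171705258), far from the Cd28 cluster. It had 111, 87.3 and 112 RPKM in the CML mice, and 130, 114 and 119 RPKM in the naive mice. All CML libraries lay below the naive libraries, but the gap between CML replicate 3 and naive replicate 2 was small, and with the same 75th percentile the groups overlapped, while with quantile normalization they did not (9.12% of all features lay lower in this way). The log2 fold change was -0.24 (95% interval -0.62 to 0.14, limma adjusted p = 0.666). The ratio of Cd2 to Cd48 was 4.59, 4.78 and 5.86 in the CML mice, and 3.82, 4.51 and 3.74 in the naive mice. It lay higher in each CML library than in any naive library, with a log2 difference of 0.33 (exact permutation, 2-sided p = 0.1, which is the smallest possible, and 0.167 after adjustment over 5 ratios). The share of all features with such a separated ratio to Cd48 was not computed.

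**Figure D4:**
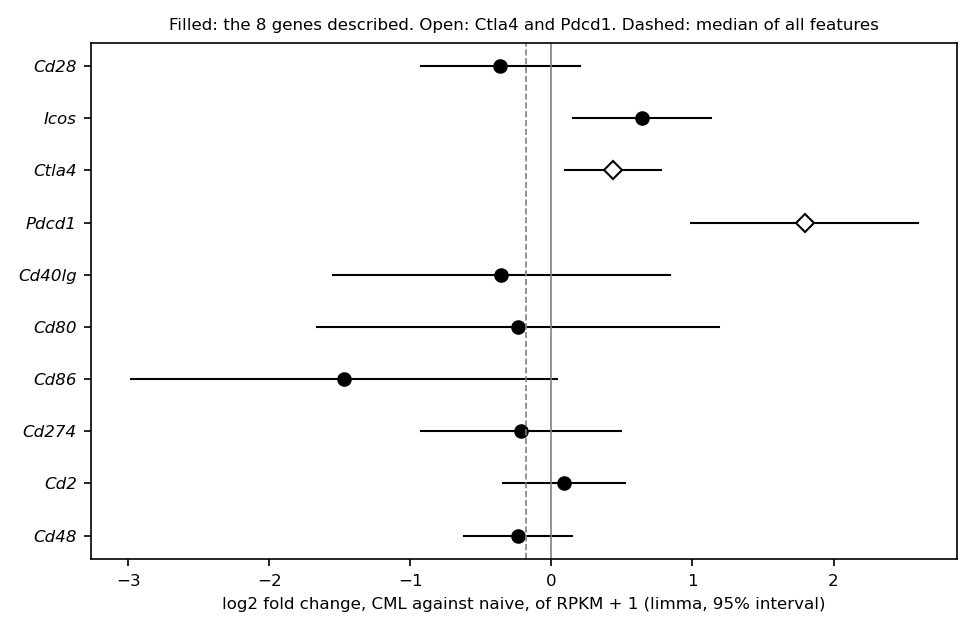
Log2 fold change of CML against naive Tregs on the RPKM + 1 scale with its 95% limma interval, for the 8 genes (filled circles) and for Ctla4 and Pdcd1 (open diamonds), with the median of all features as a dashed line at -0.18. The intervals of Icos, Ctla4 and Pdcd1 lie above 0 before any adjustment for the number of features, and those of the other 7 genes include 0.

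By mean RPKM, which is scaled for feature length, the order in naive Tregs was Cd2, Cd48, Icos, Cd28, Cd274, Cd40lg, Cd86 and Cd80. Each neighbouring pair was separated in all 3 naive libraries except Cd86 and Cd80, whose values overlapped. In CML Tregs Icos took the place above Cd48, with all 3 Icos values above all 3 Cd48 values. Cd28 and Cd274 overlapped there, as did Cd40lg with Cd80 and Cd80 with Cd86.

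Of the 10 other CD28 and B7 family genes and partners that were listed, 9 reached the mean of 1 RPKM required for the test, 0 passed it by limma (0.172% of all features did), and 1 was found at the unadjusted p with the fold (8.55% of all features were). This was Pdcd1, which encodes PD-1, the receptor of PD-L1. Pdcd1 had 90.7, 40.3 and 96.4 RPKM in the CML mice, and 22.7, 16.7 and 20.1 RPKM in the naive mice. Every CML library was above every naive library, and the log2 fold change was 1.79 (95% interval 0.99 to 2.60, limma adjusted p = 0.148). The adjusted p was 0.0354 without CML replicate 2, 0.0483 with quantile normalization and 0.0483 with the same 75th percentile, and 0.0293 with weights for each library. Over the other alternatives it ran up to 0.618.

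Among the ligands and partners on the other side of these receptors, Icosl, the ligand of ICOS, had 22.4, 12.4 and 15.3 RPKM in the CML mice and 13.1, 16.5 and 15.3 RPKM in the naive mice. Its groups overlapped (log2 fold change 0.12, limma adjusted p = 0.913). Pdcd1lg2, which encodes the second PD-1 ligand and lies next to Cd274, had 1.94, 3.24 and 10.6 RPKM against 1.55, 5.98 and 2.90 RPKM. Cd40, the receptor of CD40 ligand, was low throughout, with 0.162, 1.65 and 7.74 RPKM in the CML mice and at most 1.27 RPKM in naive Tregs. Of the 9 tested genes of this list, 8 had a positive log2 fold change, with a median of 0.35. Of the 13923 features tested, 4977 had a positive log2 fold change, with a median of -0.18.

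The relatives of Cd2 and Cd48 form the SLAM family, whose members mostly bind their own kind on the neighbouring cell. Of 10 listed genes 8 were tested, 0 passed by limma, and at the unadjusted p with the fold 1 was higher and 3 were lower in CML Tregs (2.61% and 5.94% of all features were). The higher one was Slamf1, with 110, 129 and 169 RPKM in the CML mice and 90.4, 64.5 and 81.6 RPKM in the naive mice. Its groups did not overlap (log2 fold change 0.77, limma adjusted p = 0.301). Cd84 was the gene that lay lower without overlap, with 130, 62.4 and 172 RPKM against 211, 210 and 181 RPKM (log2 fold change -0.83, limma adjusted p = 0.496). Slamf7 and Sh2d1a, the adaptor that carries SLAM signals, were the other lower genes, and both overlapped between the groups. Sh2d1a had 66.9 RPKM in CML replicate 1, inside the naive range of 66.8 to 70.3 RPKM, but 12.7 and 19.5 RPKM in CML replicates 2 and 3. Cd244, a further receptor for CD48 that is typical of NK cells, had 2.09 to 8.79 RPKM in CML and 2.46 to 12.3 RPKM in naive Tregs. The median log2 fold change of the 8 tested genes of this list was -0.52, against -0.18 for all features. These genes include the adaptor Sh2d1a (-1.38), and the middle values were -0.83 for Cd84 and -0.22 for Slamf6. A median without Sh2d1a was not computed.

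Behind CD28 and ICOS stand the kinases, adaptors and transcription factors of T cell activation. All 27 listed genes were tested and 0 passed by limma, with 1 higher and 1 lower at the unadjusted p with the fold (2.61% and 5.94% of all features were). The groups did not overlap for 8 of them, of which 2 were higher and 6 lower in CML Tregs (4.84% and 12.2% of all features were), and the median log2 fold change was -0.12 (-0.18 for all features). Genes lay in both directions along the branch to NF-κB, in which the kinase PKC-θ (Prkcq) acts upstream of BCL10 and MALT1. Prkcq had 106, 76 and 74.6 RPKM in the CML mice, and 153, 199 and 148 RPKM in the naive mice. Malt1 had 171, 127 and 130 RPKM in the CML mice and 70.5, 78.8 and 95.1 RPKM in the naive mice. Prkcq thus lay lower in all CML libraries (log2 fold change -0.96, limma adjusted p = 0.192), while Malt1 lay higher in all of them (log2 fold change 0.80, limma adjusted p = 0.240). The kinases Lck and Fyn, which start the signal, overlapped between the groups, at 211 ± 18.4 and 229 ± 21.7 RPKM for Lck and 290.0 ± 20.6 and 285 ± 67.6 RPKM for Fyn (SD, n = 3, CML and naive).

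Of the 4 proteins listed as binding the CD2 tail, 0 passed by limma (0.172% of all features did). At the unadjusted p with the fold, 0 of them were found (8.55% of all features were). Sh3kbp1 had 202, 164 and 218 RPKM in the CML mice and 279, 266 and 261 RPKM in the naive mice, and the groups did not overlap (log2 fold change -0.47, limma adjusted p = 0.383). Pstpip1 lay slightly higher in each CML library (127 ± 3.0 against 111 ± 2.15 RPKM, SD, n = 3, limma adjusted p = 0.677), but its groups overlapped with either other scaling. The regulators of ICOS, CD40 ligand or B7 expression include Rc3h1, which encodes the Icos mRNA repressor roquin-1. Of these, 9 of 10 listed genes were found and tested, and 0 passed by limma (0.172% of all features did). At the unadjusted p with the fold, 0 were found (8.55% of all features were). All 9 overlapped, where 17.1% of all features were fully separated. Their median log2 fold change was 0.07 (-0.18 for all features). Rc3h1 had 37.9 ± 5.98 RPKM in CML and 39.1 ± 2.23 RPKM in naive Tregs (SD, n = 3).

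Interferon γ is a well-known inducer of PD-L1, and the mRNAs of its receptor chains lay in opposite directions in these data. Ifngr1, which encodes the chain that binds interferon γ, had 673, 504 and 582 RPKM in the CML mice, and 280, 311 and 326 RPKM in the naive mice. Ifngr2, which encodes the second chain, had 8.81, 10.9 and 17.1 RPKM in the CML mice, and 24.9, 22.7 and 23.7 RPKM in the naive mice. The groups did not overlap for either gene, with log2 fold changes of 0.93 and -0.95 (limma adjusted p = 0.0967 and 0.369). For Ifngr1 the adjusted p was 0.0393 with the same 75th percentile, 0.0483 with quantile normalization and 0.0371 with library weights, and it ran up to 0.476 over the other alternatives. Of the 6 genes listed for this route, 0 passed by limma, 1 higher and 1 lower gene were found at the unadjusted p with the fold (2.61% and 5.94% of all features were), 2 lay higher and 1 lower without overlap (4.84% and 12.2% of all features did), and Cd274 itself overlapped.

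**Figure D5:**
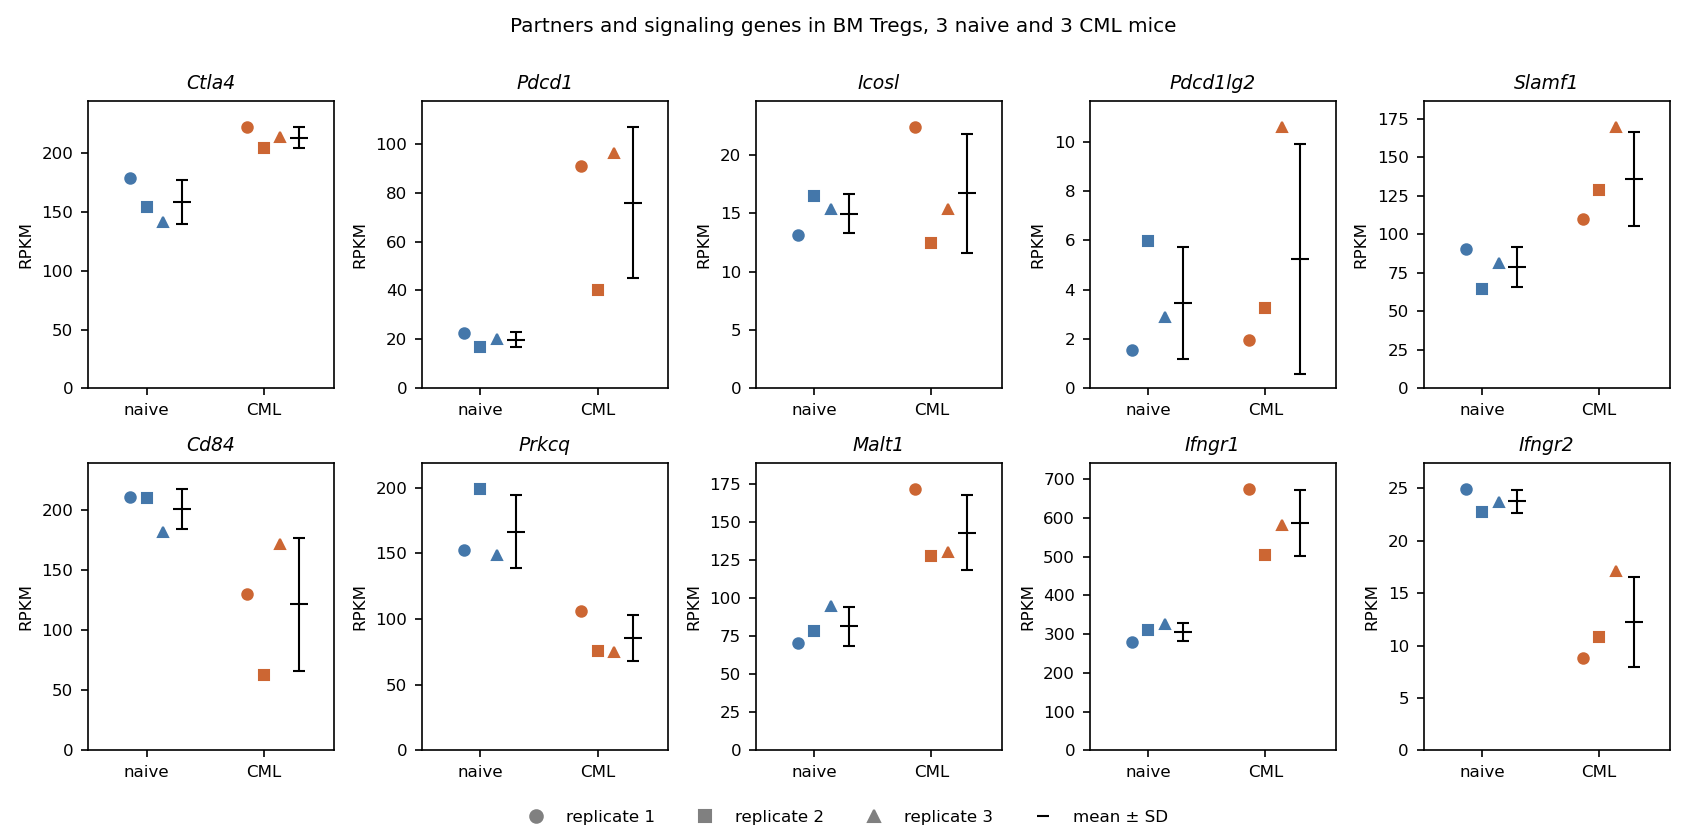
RPKM of 10 partners and signaling genes in each of 3 naive (blue) and 3 CML (orange) libraries, with the mean ± SD of each group beside the points. Pdcd1, Ctla4, Slamf1, Malt1 and Ifngr1 sit higher in every CML library, Cd84, Prkcq and Ifngr2 sit lower, and Icosl and Pdcd1lg2 overlap.

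The features whose pattern over the 6 libraries was most like that of each gene were sought among the 10047 features with a mean of at least 5 RPKM, by Pearson r of log2(RPKM + 1) over 6 samples, which share depth and group. For Icos they were Stat3 (r = 0.997), with 163, 115 and 172 RPKM in the CML mice and 110, 96.5 and 110 RPKM in the naive mice, and Gpr55. For Cd28 they were Ube4a and Cpeb4, for Cd40lg Tssc4 and Saysd1, for Cd80 Dnajc14 and Man1b1, and for Cd86 Spata5l1 and Pptc7. For Cd274 they were Dstyk and Hist4h4, for Cd2 Tmem173 and Myl12b, and for Cd48 Prpf18 and Pigl. The r of these 16 features lay between 0.990 and 0.998, and with so many features such values are a description only.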

How the data were processed

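RNA of FACS-purified BM Tregs was prepared with the SMART-Seq v4 kit and sequenced on an Illumina NextSeq. Read assembly by the authors used SeqMan NGen, and expression was computed in ArrayStar. The submitters' processing notes name GRCm38/mm10, and the gene annotation is not given in the sources used here. The deposited values are taken to be RPKM. The methods leave the unit open, and this reading rests on the small RNA genes, for which value times length fell on multiples of a fixed step (30.5% to 59.0% of products by library, where an even spread would give 10%). Other units scaled by length would give such steps too, so this check cannot tell RPKM from them. The reads per library follow from that step and are estimates. Reads of a gene are approximate and use its longest GENCODE M21 transcript. A value of 0.001 marks features without reads and was set to 0.

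Log2(RPKM + 1) of the 13923 features with a mean of at least 1 RPKM was fitted with limma 3.58.1 in R 4.3.3 (trended prior variance, no replicate block). Fold changes on this scale understate those of low genes. The paper's methods name DESeq2, which needs counts and was not run. Ratios were compared with exact permutation tests in Python 3.11.15. Libraries of 1 group come from different mice, according to the paper. The 8 genes, the 6 pathway lists, the 10 marker lists and the tests were chosen with earlier results of these data known. Besides these 8, the text names the genes of each list with the largest log2 fold changes among those without overlap, up to 3 a list, the direct partners Ctla4, Pdcd1, Icosl, Pdcd1lg2, Cd40 and Cd244, and for each gene the 2 features of most similar pattern. Slamf7, Sh2d1a, Lck, Fyn and Rc3h1 were chosen after their values were seen. Of 67 pathway genes, 66 were found. Some listed genes that this rule would name are not reported here, but the counts include them.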

Additional observations from a re-analysis of the deposited data

How the results depend on the processing

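Of the 8 genes, none passed the test in any of the 15 alternatives, with limma adjusted p between 0.136 and 0.989. The number of all features that passed was 24, and it was 0 with a pseudocount of 0.001 (973 at the unadjusted p with the fold), 1 without a filter, 53 with the same 75th percentile, 53 with quantile normalization, 45 with library weights and 11 without a trend. It was between 0 and 17 when 1 library was left out, with 0 without any 1 of the 3 naive libraries (742 to 851 at the unadjusted p with the fold) and 6 without CML replicate 3. With the replicate number as a block it was 1. The deviations of same-numbered CML and naive libraries from their group means were nearly uncorrelated (r = -0.0048, -0.0016 and -0.019). With 3 libraries a group, this cannot show whether same-numbered libraries shared a preparation step. The block changed no call among the 8 genes, Ctla4, Pdcd1 and Ifngr1, and the gene lists were not counted with it. At the unadjusted p with the fold, 363 features were higher and 827 lower, against 624 and 590 after quantile normalization. The cause of these changes was not tested.

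The direction of Icos, Cd28, Cd86 and Cd48 was the same in every alternative run (Cd86 had too low a mean for the filter of 5 RPKM). Leaving out 1 library, the log2 fold change ranged from -0.86 to 0.18 for Cd40lg, from -0.62 to 0.30 for Cd80, from -0.50 to 0.083 for Cd274 and from -0.078 to 0.25 for Cd2, and the log2 difference in the ratio of Cd86 to Cd80 from -1.29 to 1.0. For Cd80 it was 0.072 with quantile normalization. The log2 fold change of Cd86, with no reads in CML replicate 3, was -2.62 with a pseudocount of 0.1 and -4.84 with 0.001. CML replicate 2 had too few reads to measure Cd80 and Cd86 well. Intervals and read floors cover counting or replicate error only.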

Other observations

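CML replicate 3 had the highest value of the 6 libraries for Cd40, Pdcd1lg2 and Tnfrsf14. Cd40 had 7.74 RPKM there and at most 1.65 RPKM in the other 5 libraries, Pdcd1lg2 had 10.6 RPKM and at most 5.98 RPKM elsewhere, and Tnfrsf14, which encodes the BTLA ligand HVEM, had 81.5 RPKM and at most 43.3 RPKM elsewhere. Icosl, by contrast, was highest in CML replicate 1 (22.4 RPKM), and Cd80 in naive replicate 3 (8.22 RPKM). CML replicate 3 had no reads of Cd86 and the lowest Cd83 (8.88 RPKM, against 20.4 to 32.6 RPKM elsewhere). The choice of these genes followed a look at their values, and no test was made because CML replicate 3 is 1 library.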
